A study of Mus musculus with 16 samples.

Results

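B and plasma cell genes are described here across livers and liver tumours of mice in which the carcinogen diethylnitrosamine (DEN) induces hepatocellular carcinoma. The 9 genes are Cd79a, Cd79b, Ms4a1, Ighm, Igha, Igkc, Jchain, Mzb1 and Tnfrsf17, out of 47069 gene rows in the deposited table. Of these, 6 were found by their symbol and 3, the immunoglobulin genes Ighm, Igha and Igkc, by their Ensembl gene ID, because the table gives them no symbol. The 16 libraries of mRNA sequencing fell into 6 groups, all of them DEN-treated, so that no group without the carcinogen is part of these comparisons. Tumours at 9 months came from mice on a high-fructose diet (3 libraries) or a cornstarch diet (2 libraries). Livers at 9 months came from 3 fructose and 3 cornstarch libraries, and livers at 5 months from 2 fructose and 3 cornstarch libraries. The labels give neither the strain, the sex, the DEN dose nor the DEN schedule, and no label ties a library to its own mouse. Replicate numbers are only names, given here in accession order, and pair nothing across groups. The p-values therefore cover the spread among these libraries only, and some of that spread may be technical.

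B cells carry an antibody on their surface as the antigen receptor, which signals through the CD79 proteins. After activation they can become plasma cells, which secrete antibody in bulk. Antibody of the IgA class and of the IgM class is joined into polymers by the J chain, and the polymeric immunoglobulin receptor then carries it across epithelia. IgA plasma cells are best known from the gut wall, and the liver receives blood and antibody from the gut.

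The secreted IgA and IgM heavy chains end in a tailpiece that the J chain binds, and these coding sequences are shown because Igha, Ighm and Jchain carry the main contrast below. Each line holds the last 57 coding bases of the secreted form, stop codon included, on the minus strand of chromosome 12 in GRCm38 (GENCODE M21). Igha lies at 113258768 to 113258824 and Ighm at 113420867 to 113420923. Capitals mark the codon of the penultimate cysteine, the 17th of 18 amino acid codons, through which the tailpiece is bonded to the J chain.
Igha-201 tailpiece: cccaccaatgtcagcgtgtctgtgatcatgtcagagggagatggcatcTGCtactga
Ighm-201 tailpiece: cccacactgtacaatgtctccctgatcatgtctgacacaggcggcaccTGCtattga
The 2 tailpieces had the same base at 38 of 57 positions (66.7%), and both hold the cysteine codon at the same place. Gene counts such as these do not separate the secreted form of either heavy chain from its membrane form.

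RefSeq promoter sequence on GRCm38.p6 was searched for Jchain, Cd79a and Tnfrsf17, and not for Mzb1. The first is printed because Jchain is the 1 of those searched in the tightly correlated set described below. The line gives the 250 bases before its start, chr5:88527898-88528147, on the minus strand. It is all in lower case because none of the 4 motifs searched was found in it.
Jchain promoter: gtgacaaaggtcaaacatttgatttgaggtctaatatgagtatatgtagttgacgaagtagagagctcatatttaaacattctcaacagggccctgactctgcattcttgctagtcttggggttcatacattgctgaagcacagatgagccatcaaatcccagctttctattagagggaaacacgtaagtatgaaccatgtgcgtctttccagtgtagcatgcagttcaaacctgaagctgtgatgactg
On either strand, the search covered the octamer ATGCAAAT of immunoglobulin promoters, the EBF1 motif, the PU.1 motif GAGGAA and the E-box CACCTG. They occurred in 1.60%, 0.779%, 23.3% and 17.2% of 32851 mouse promoters of the same length. The Cd79a promoter held a PU.1 match 140 to 135 bases before the start and an E-box match 154 to 149 bases before it. The Tnfrsf17 promoter held a PU.1 match 120 to 115 bases before the start.

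Libraries held 11232461 to 38377674 reads over the listed genes. Replicate 1 of the 5-month fructose livers and replicate 1 of the 5-month cornstarch livers had Xist, the RNA of the inactive X chromosome, at 12936 and 10883 normalised counts with almost no Y-linked signal, unlike the other 14. These 2 libraries are called the XX libraries. Calls lost without them are given below for many of the genes described, but not for every gene. Among the others, replicate 3 of the 9-month cornstarch livers had Xist at 226 beside a clear Y-linked signal, and the next highest stood at 25.8. Hepatocyte genes dominated every group, while of the 16 T and NK cell markers 2, Cd5 and Ncr1, stayed below 10 normalised counts in all libraries. Values are normalised counts unless another scale is named. Fold changes were taken after adding 1 to each value and moving to log2, so those of low genes come out too small, and adjusted p-values are from limma over all genes tested.

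The antibody genes and Jchain were the most abundant members. Per kilobase of exon, the median normalised count over the 16 libraries was 2197 for Igkc, the constant region of kappa light chains (chromosome 6, 70726435 to 70726966, plus strand, GRCm38). Igha, the constant region of IgA heavy chains (chromosome 12, 113254830 to 113260236), followed at a median of 562 per kilobase. Jchain (chromosome 5, 88519809 to 88527891), at 182 per kilobase, and Ighm, the constant region of IgM (chromosome 12, 113418558 to 113422730), at 179 per kilobase, were next and close to each other. Cd79b and Cd79a, the paired signalling chains of the B cell receptor, had medians of 15.6 and 12.2 per kilobase. Mzb1, an endoplasmic reticulum protein that helps antibody assembly, had 11.3 per kilobase. Ms4a1, which encodes the B cell surface protein CD20, had 1.66 per kilobase. Tnfrsf17, which encodes BCMA, a survival receptor of plasma cells, had a median of 0. Of the 9 genes, 8 passed the filter on low values (a value of 10 or more in 2 or more of the fitted libraries) and Tnfrsf17 did not.

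Igha reached its highest values in tumours. It stood at 2909, 6238 and 359 normalised counts in the fructose tumours and at 5732 and 20407 in the cornstarch tumours. In the 9-month livers it stood at 1054, 486 and 207 under fructose and at 1945, 837 and 847 under cornstarch. In the 5-month livers it stood at 2879 and 3814 under fructose and at 2369, 798 and 499 under cornstarch. By group mean the order was cornstarch tumours (13070), 5-month fructose livers (3347), fructose tumours (3169), 5-month cornstarch livers (1222), 9-month cornstarch livers (1210) and 9-month fructose livers (582). Most neighbours in that order had ranges that overlapped, the cornstarch tumours against the 5-month fructose livers being the exception.

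Igkc, which serves antibodies of every class with a kappa light chain, had a profile close to that of Igha. Its normalised counts were 1987, 3849 and 231 in fructose tumours and 3664 and 13911 in cornstarch tumours. At 9 months the fructose livers had 1061, 377 and 300 and the cornstarch livers 1277, 825 and 729. At 5 months the fructose livers had 2405 and 3420 and the cornstarch livers 1876, 523 and 326. In both genes replicate 3 of the fructose tumours was the lowest tumour, and replicate 2 of the cornstarch tumours was the highest library of all.

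Jchain had 660, 1664 and 80.9 normalised counts in fructose tumours and 1347 and 4835 in cornstarch tumours. At 9 months it had 376, 133 and 77.5 in fructose livers and 514, 401 and 200.1 in cornstarch livers. At 5 months it had 702 and 829 in fructose livers and 513, 221 and 154 in cornstarch livers. The order of the tumours was that of Igha. Mzb1, on 27 to 117 reads per group, had 25.2, 25.9 and 6.09 normalised counts in fructose tumours and 22.7 and 82.0 in cornstarch tumours. Its 9-month livers lay between 5.44 and 16.6 under fructose and between 8.34 and 12.3 under cornstarch. Its 5-month livers had 19.0 and 21.7 under fructose and 15.3, 8.22 and 3.99 under cornstarch.

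Tnfrsf17 was close to the limit of detection. It had 3, 6 and 0 reads in the fructose tumours and 4 and 9 reads in the cornstarch tumours. All livers together held 3 reads, 1 each in a 9-month fructose, a 5-month fructose and a 5-month cornstarch library, and a count of 0 still allows up to 3 reads in a library. It was listed above 1 read in 4 of the 5 tumours and in none of the 11 livers, and it was not tested.

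Ighm had a different profile from the other antibody genes. It stood at 267, 166 and 147 normalised counts in fructose tumours and at 230 and 333 in cornstarch tumours. At 9 months it stood at 804, 340 and 577 in fructose livers and at 1073, 530 and 123 in cornstarch livers. At 5 months it stood at 592 and 324 in fructose livers and at 430, 131 and 410 in cornstarch livers. The tumours lay within a narrow band at the low end of the livers, and cornstarch livers at 9 months spread from the lowest to the highest value of all libraries.

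Cd79a rested on 33 to 103 reads per group. It had 18.3, 15.4 and 4.35 normalised counts in fructose tumours, 21.9 and 70.1 in cornstarch tumours, 14.5 to 19.8 in 9-month fructose livers and 15.4 to 33.8 in 9-month cornstarch livers. At 5 months it had 21.9 and 32.0 in fructose livers and 14.3, 5.14 and 17.3 in cornstarch livers. Cd79b had 28.7, 18.6 and 13.9 in fructose tumours, 18.5 and 40.1 in cornstarch tumours, 47.9, 26.9 and 39.0 in 9-month fructose livers and 14.5, 26.1 and 11.9 in 9-month cornstarch livers. At 5 months Cd79b had 45.2 and 45.7 in fructose livers and 12.4, 8.22 and 18.6 in cornstarch livers, so both fructose livers lay well above all 3 cornstarch livers. These values rested on few reads, 31 and 40 in fructose livers and 13, 8 and 14 in cornstarch livers. Ms4a1, on only 12 to 56 reads per group, ranged from 1.74 in a fructose tumour to 23.1 in a 9-month cornstarch liver.

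**Figure D1:**
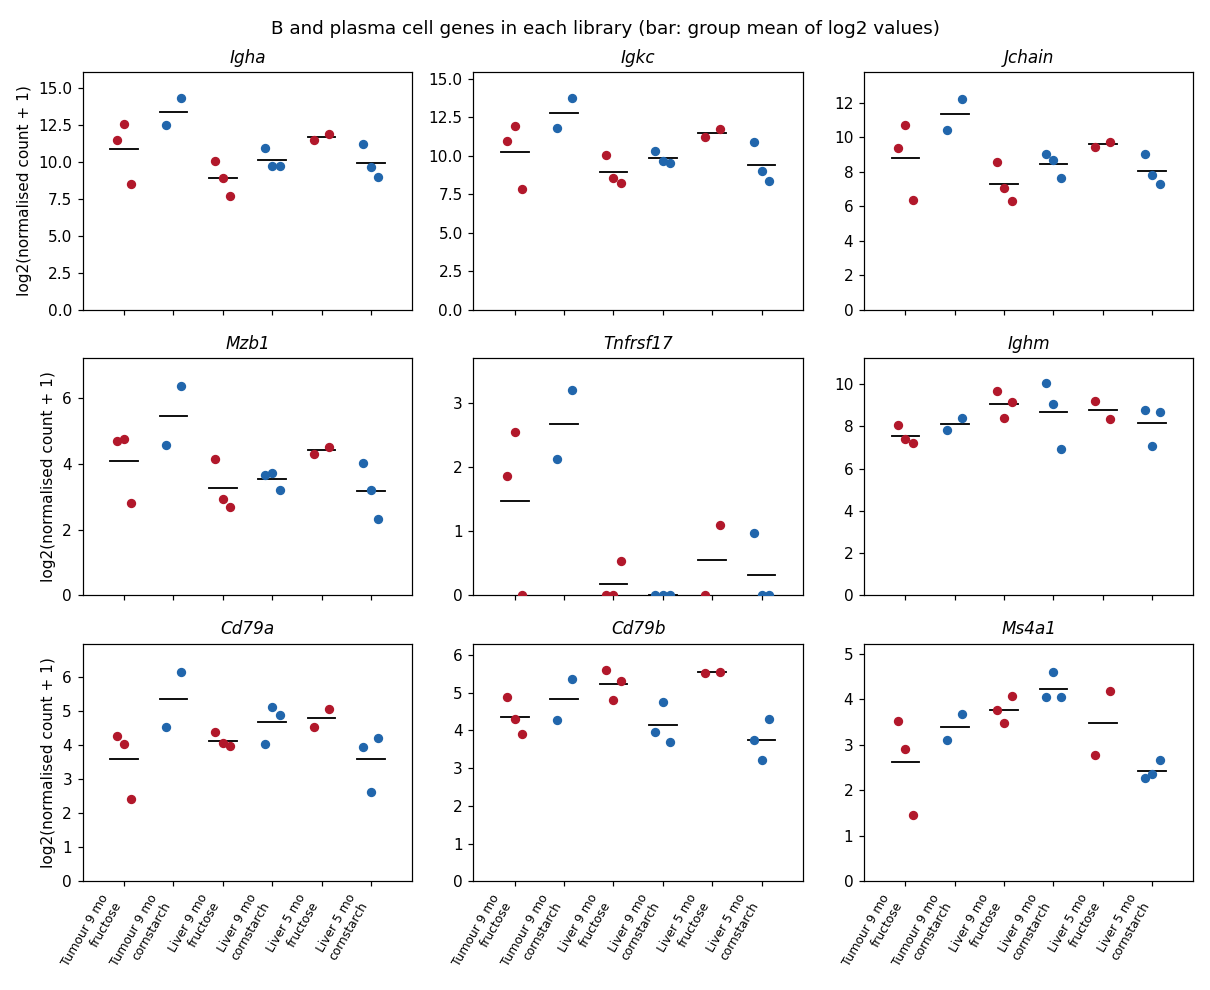
Each point is a library, the vertical axis is log2(normalised count + 1), fructose is red, cornstarch is blue, and bars are group means of the log2 values. Igha, Igkc, Jchain and Mzb1 share 1 profile with replicate 2 of the cornstarch tumours on top, while Ighm has its 5 tumours between 147 and 333 normalised counts.

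Over the 16 libraries, Igha, Igkc, Jchain and Mzb1 formed a tight set. Pearson correlations of their log2 values were 0.94 to 0.98 in the 6 pairs, and 0.92 to 0.98 after the group means were subtracted. Their correlations with Ms4a1 and Ighm were -0.04 to 0.21, and with Cd79b 0.21 to 0.40. After the group means were subtracted these became 0.32 to 0.52 and 0.30 to 0.47, so the distance from Ms4a1 and Ighm was smaller within groups. Cd79a stood between, at 0.57 to 0.66 with the 4 genes, which became 0.37 to 0.49 without replicate 2 of the cornstarch tumours. These are descriptions over libraries that share their normalisation and their groups. Among 12379 other genes with a mean of at least 10, the most like Jchain were Mzb1 (r = 0.95), Ppa1 (0.86), Zfp750 (0.84), Rdh5 (0.83) and Trp53inp1 (0.83). The most like Cd79a were Recql4 (0.81), Ppp4r4 (0.78), Cog2 (0.76), P2rx4 (0.74) and Tada3 (0.74).

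**Figure D2:**
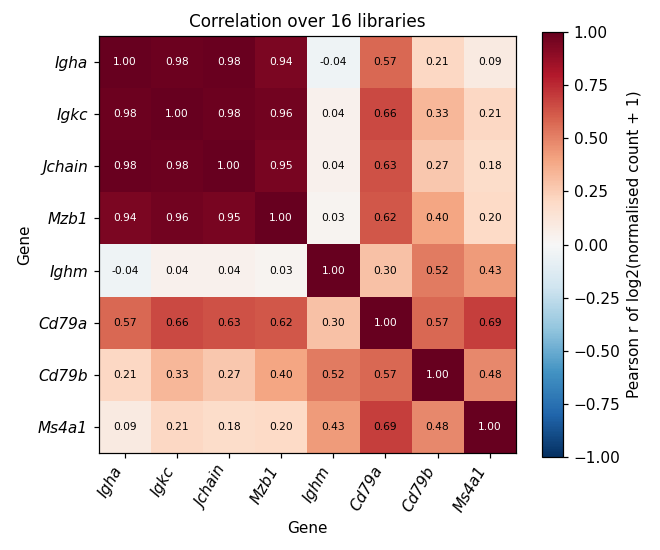
Each cell is the Pearson correlation of log2(normalised count + 1) between a pair of genes over 16 libraries, from blue (-1) to red (1). Igha, Igkc, Jchain and Mzb1 form a block at 0.94 to 0.98, and their cells with Ighm lie between -0.04 and 0.04, which became 0.32 to 0.39 with group means subtracted.

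In livers at 5 months, the comparison of diets asked how fructose feeding relates to B lineage genes at the earlier age. Cd79b rose under fructose 3.46-fold (log2 fold change 1.79, SE 0.42, adjusted p = 0.0183), and it was the only member of the 8 tested that passed in limma; edgeR and DESeq2 each called 1 as well. Over all genes 14.8% were called, and 10.3% were called higher, so 1 of 8 is close to the background. All 8 members had a positive fold change, with a median log2 fold change of 1.39, against -0.01 for all genes. Igkc stood 4.19-fold higher (SE 0.68 on the log2 scale) but missed the threshold at an adjusted p of 0.0671. Igha (3.38-fold, adjusted p = 0.130), Jchain (2.93-fold, adjusted p = 0.139), Cd79a (2.29-fold, adjusted p = 0.136), Mzb1 (2.34-fold, adjusted p = 0.175), Ms4a1 (2.07-fold, adjusted p = 0.159) and Ighm (1.53-fold, adjusted p = 0.661) also missed it.

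The fructose and cornstarch livers at 5 months did not overlap in 7 members, all higher under fructose, and overlapped in Ighm; 27.1% of all genes were higher without overlap. Of the 7, 4 are the tightly correlated set. For Ms4a1 the gap arose from scaling alone, with 4 reads in fructose replicate 1 and 4 in each cornstarch liver. Mzb1 had 13 reads in fructose replicate 1 against 16 in cornstarch replicate 1, so its gap also depended on scaling. The call of Cd79b did not survive the loss of either fructose liver (adjusted p = 0.0859 without replicate 1 and 0.135 without replicate 2) or of cornstarch replicate 2 (0.0621). Without the XX libraries, Cd79b stood at a log2 fold change of 1.80 (1 fructose liver against 2 cornstarch livers, adjusted p = 0.124), and the only call was Igkc (3.05, adjusted p = 0.0308).

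Some genes of the related lists, which are not all specific to B lineage cells, rose beside Cd79b at 5 months. Of the 20 tested genes of the B cell list 6 rose, among them Ly6d, which is expressed by lymphoid precursors and by epithelia (26.5-fold), the B cell receptor kinase gene Btk (4.26-fold) and the tetraspanin gene Cd37 (2.72-fold). Of the 10 tested plasma cell genes 1 rose, Tnfrsf13b, which encodes the receptor TACI (58.3 and 65.1 normalised counts in fructose livers, against 10.5, 4.11 and 5.33 in cornstarch livers; 8.71-fold, adjusted p = 0.00148). Of the 11 tested immunoglobulin constant genes 5 rose, with Ighg1 20.3-fold and Iglc2 6.48-fold, and all 11 had a positive fold change. Ighg3, also called, stood at 29.2 and 8.00 normalised counts in fructose livers, against 0.954, 0 and 0 in cornstarch livers, too few reads for a fold. Ighg1 stood at 112 and 602 normalised counts in fructose livers, against 19.1, 9.24 and 9.32 in cornstarch livers. The IgG genes are near copies of each other, so how their reads were divided is uncertain. Of the 6 tested survival and homing genes 3 rose, namely the chemokine receptor gene Cxcr4 (10.3-fold), the gut-homing integrin gene Itgb7 (4.71-fold) and Tnfsf13 (3.86-fold), which encodes the plasma cell survival factor APRIL. Without fructose replicate 2, Btk (log2 fold change 1.81), Cd37 (1.27), Ighg1 (3.14), Iglc2 (2.44), Itgb7 (2.17) and Tnfsf13 (2.10) were no longer called, nor was Ighg3. Without fructose replicate 1, Iglc2 (2.95), Itgb7 (2.31) and Tnfsf13 (1.80) were no longer called, nor was Ighg3, while Ly6d, Tnfrsf13b and Cxcr4 passed in both cases. The call of Iglc2 was also lost without any 1 cornstarch liver (2.51 to 2.83), and those of Tnfsf13 (1.98 and 1.62) and Ighg3 without cornstarch replicate 2 or 3. Without the XX libraries, Iglc2 (adjusted p = 0.123), Ighg3 (0.207), Itgb7 (0.0623) and Tnfsf13 (0.113) were not called, and with quantile normalisation Iglc2, Ighg3 and Tnfsf13 were not (0.0682, 0.0753 and 0.0640). With all 16 libraries in the fit, Ighg1 (0.0677) and Iglc2 (0.102) were not called.

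Leukocyte genes of other kinds moved with this contrast. Ptprc, which encodes the pan-leukocyte protein CD45, stood at 742 and 910 normalised counts in fructose livers, against 277, 243 and 352 in cornstarch livers, and rose 2.86-fold (adjusted p = 0.0407), a call lost when any single 5-month liver was left out (log2 fold changes of 1.37 to 1.66) and without the XX libraries (adjusted p = 0.148). All 7 granulocyte precursor genes and 5 of 7 red cell precursor genes rose. Mpo, the myeloperoxidase gene of granulocyte precursors, stood at 3144 and 2414 normalised counts in fructose livers, against 1.91, 0 and 0 in cornstarch livers. Of the 13 tested T and NK cell genes Nkg7 rose and Trac fell. Of the 9 macrophage genes 2 rose, C1qa and C1qb. The antibody receptor and transport list had 3 of 9 genes higher, the Fc receptor genes Fcgr3, Fcer1g and Fcgr1. Fcgr3 kept its call with any 1 library left out (log2 fold changes of 1.49 to 1.71). Fcer1g and Fcgr1 lost theirs in some of these fits. Per 100 normalised counts of Ptprc, Cd79b came to 6.09 and 5.02 in fructose livers and to 4.48, 3.38 and 5.30 in cornstarch livers, and these ranges overlap. Igha per 100 of Ptprc came to 388 and 419 in fructose livers, inside the cornstarch range of 142 to 856. In bulk tissue, fewer cells of a type and less RNA per cell cannot be told apart, and the part of leukocyte content in the member differences was not tested.

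In livers at 9 months, no member was called between the diets in limma, edgeR or DESeq2, and 1 (Cd79b) had an unadjusted p under 0.05. Over all genes 2.54% were called. Cd79b was higher under fructose in every library (2.16-fold, log2 fold change 1.11, SE 0.38, adjusted p = 0.143). It was the single member without overlap, where 12.9% of all genes were higher without overlap. The nearest libraries stood at 26.9 normalised counts under fructose and 26.1 under cornstarch. This gap was below the 1.54 normalised counts of 1 read in that cornstarch library. Ptprc had a log2 fold change of 1.36 and was not called in limma. Relative to Ptprc, on the scale used at 5 months, Cd79b overlapped between the diets. It came to 4.36, 5.67 and 9.60 in fructose livers and to 5.36, 7.91 and 8.62 in cornstarch livers. Igha, Igkc and Jchain leaned lower under fructose, with log2 fold changes of -1.23 (SE 0.64), -0.89 (SE 0.61) and -1.13 (SE 0.58) and adjusted p-values of 0.312, 0.448 and 0.306. The medians over the 8 members and over all genes were -0.50 and -0.02. Of the 20 tested B cell genes Cd180, a Toll-like receptor relative of B cells and myeloid cells, rose 3.32-fold. Of the 9 antibody receptor genes the Fc receptor genes Fcgr3 and Fcgr1, both also called at 5 months, rose 2.34-fold and 3.18-fold. These 3 calls were lost when any single fructose liver of 9 months was left out, and without the XX libraries (adjusted p = 0.0678, 0.0589 and 0.0730), which enter through the shared estimate of the spread. Beside these, 5 of 9 macrophage genes rose, Adgre1 (5.19-fold), Csf1r (3.65-fold), Cd5l (3.45-fold), C1qb (2.89-fold) and C1qa (2.64-fold). Calls over all genes in this comparison fell from 363 to 1, 5 and 0 when fructose liver replicate 1, 2 or 3 was left out. With the compared groups alone 0 genes were called, so the macrophage calls were not stable either. No plasma cell and no immunoglobulin constant gene was called.

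The diet fold change was positive at 5 months and negative at 9 months for 6 members, and no member passed the test of the difference between ages (limma, edgeR and DESeq2 each called 0, and 5 had an unadjusted p under 0.05). For Igha the diet effect at 9 months minus that at 5 months was -2.99 (SE 0.96, adjusted p = 0.247), for Igkc -2.96 (SE 0.91, adjusted p = 0.225) and for Jchain -2.68 (SE 0.87, adjusted p = 0.253), on the log2 scale. Over all genes 0.698% were called. Among the related lists, 1 of 10 tested plasma cell genes passed, Tnfrsf13b, at -3.70 (SE 0.58, adjusted p = 0.0250). So did 1 of 11 tested immunoglobulin constant genes, Ighg1, at -5.70 (SE 0.97, adjusted p = 0.0339). All 7 granulocyte precursor genes passed as well, with a median of -7.68 on the log2 scale. Tnfrsf13b was not called without the XX libraries, and both calls were lost in most fits that left out a library.

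**Figure D3:**
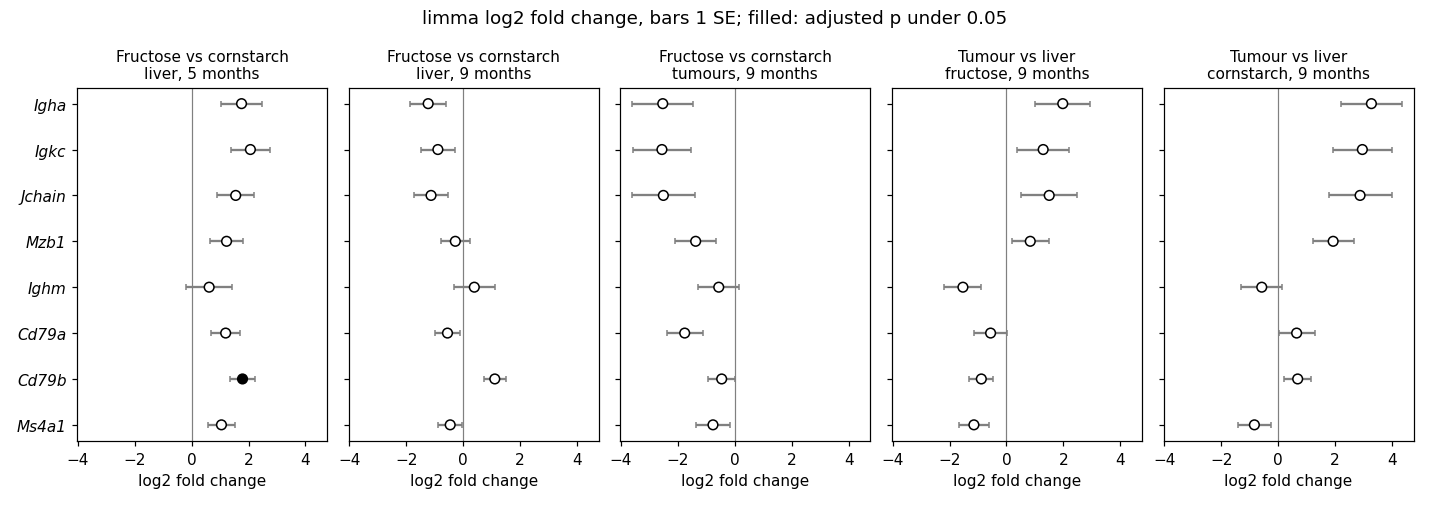
Log2 fold changes of 8 members with bars of 1 SE, fructose over cornstarch in the left 3 panels and tumour over liver in the right 2; a filled point has an adjusted p under 0.05. Only Cd79b at 5 months (1.79) is filled, and Igha reaches 3.28 in cornstarch tumours over liver.

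The diet and tumour comparisons at 9 months use the same libraries, so their results are not independent. Tumours were set against livers of the same age and diet to ask how the B lineage differs in the tumour tissue. Under cornstarch, Igha, Igkc, Jchain and Mzb1 were higher in both tumours than in all 3 livers, where 21.8% of all genes were higher without overlap, and Ms4a1 was lower without overlap, as 18.7% were. Igha stood 9.71-fold higher (log2 fold change 3.28, SE 1.08, adjusted p = 0.1004), Igkc 7.79-fold (SE 1.03, adjusted p = 0.116), Jchain 7.37-fold (SE 1.11, adjusted p = 0.151) and Mzb1 3.83-fold (SE 0.72, adjusted p = 0.140). None of the 8 members passed in limma or edgeR, 4 had an unadjusted p under 0.05 and DESeq2 called 3 (Mzb1, Igkc and Igha), while 5.71% of all genes were called in limma. The median log2 fold change of the members was 1.31. Without replicate 3 of the fructose tumours, which enters only through the shared estimate of the spread, 3 passed (Igha, Igkc and Jchain, adjusted p = 0.0274, 0.0239 and 0.0453).

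Under fructose, the tumours overlapped with the livers in every tested member but Ighm, which was lower in all 3 tumours, as 16.8% of all genes were. Ighm stood 2.89-fold lower (log2 fold change -1.53, SE 0.65, adjusted p = 0.160). Igha had a log2 fold change of 1.98 (SE 0.97, adjusted p = 0.219), Jchain 1.502 (SE 0.99) and Igkc 1.29 (SE 0.92). None of the 8 passed in limma or edgeR, 1 had an unadjusted p under 0.05 and DESeq2 called 1 (Ighm), where limma called 10.2% of all genes. Replicate 3 of the fructose tumours, with 359 normalised counts of Igha against 2909 and 6238 in the others, decided this: without it Igha (3.17, adjusted p = 0.0246), Igkc (2.48, 0.0364) and Jchain (2.73, 0.0441) were called. In the same comparison Cd79a, Cd79b and Ms4a1 had log2 fold changes of -0.56, -0.88 and -1.14, with adjusted p-values of 0.577, 0.216 and 0.192.

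Ptprc overlapped between tumours and livers under both diets: 709, 567 and 381 normalised counts in fructose tumours against 1097, 474 and 406 in fructose livers, and 261 and 249 in cornstarch tumours against 270.0, 330.4 and 138 in cornstarch livers. Igha per 100 of Ptprc came to 2198 and 8206 in cornstarch tumours, against 720, 253 and 613 in cornstarch livers. It came to 411, 1100.0 and 94.3 in fructose tumours, against 96.1, 103 and 51.0 in fructose livers. The cornstarch ranges thus stayed apart on this scale and the fructose ranges overlapped.

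Between the diets within tumours, every tested member was lower under fructose on average, and none was called by limma, edgeR or DESeq2, with 4 at an unadjusted p under 0.05. Over all genes 0% were called. Igha had a log2 fold change of -2.53 (SE 1.08, adjusted p = 0.603), Igkc -2.56 (SE 1.03, adjusted p = 0.583), Jchain -2.51 (SE 1.11, adjusted p = 0.606) and Cd79a -1.76 (SE 0.64, adjusted p = 0.531). Cd79a was the only member without overlap, where 12.5% of all genes were lower without overlap. The diet effect in tumours minus that in livers was called for none of the 8 by any of these tools (1, Cd79b, at an unadjusted p under 0.05), where 0% of all genes were called.

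Between 9 and 5 months, fructose livers had lower mean values of Igha, Igkc, Jchain and Mzb1 at the later age, short of the threshold. Igha was 6.98-fold lower at 9 months (log2 fold change -2.80, SE 0.72, adjusted p = 0.0626), Igkc 5.80-fold (adjusted p = 0.0744), Jchain 4.82-fold (adjusted p = 0.0904) and Mzb1 2.22-fold (adjusted p = 0.332). These 4 genes and Cd79a did not overlap between the ages, where 22.3% of all genes were lower without overlap. None of the 8 passed in limma or edgeR, 3 had an unadjusted p under 0.05 and DESeq2 called 2 (Jchain and Igha), while limma called 3.48% of all genes. Without replicate 1 of the 9-month fructose livers, Igha, Igkc and Jchain were called (adjusted p = 0.0362, 0.0410 and 0.0297), and without replicate 1 of the 5-month cornstarch livers Igha and Igkc were. Among related genes, Tnfrsf13b fell 7.89-fold, the only call of 10 tested plasma cell genes, whose median log2 fold change was -0.16. Ighg1 fell 52.9-fold (1 of 11 immunoglobulin constant genes called) and Cxcr4 6.44-fold (1 of 6 survival and homing genes). Fcgr3 also fell (1 of 9 antibody receptor genes), a call lost in some fits that left out a library. Its log2 fold changes were -1.36 to -1.10 over all such fits. All 7 granulocyte precursor genes fell. The call of Ighg1 was lost without replicate 2 of the 5-month fructose livers (log2 fold change -4.52), and those of Tnfrsf13b (-3.06 and -2.90) and Cxcr4 (-2.67 and -2.71) without replicate 1 or replicate 2 of that group. Cxcr4 was also not called without the XX libraries (adjusted p = 0.0628), nor Ighg1 with all 16 libraries in the fit (0.0528).

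In cornstarch livers, the 8 members had log2 fold changes of 0.18 to 1.80 for 9 over 5 months and none was called by limma, edgeR or DESeq2, with 2 (Cd79a and Ms4a1) at an unadjusted p under 0.05 and 0% of all genes called. Ms4a1 was the 1 member without overlap, higher at 9 months (3.47-fold, SE 0.42 on the log2 scale, adjusted p = 0.208), as 9.18% of all genes were. Igha had a log2 fold change of 0.18 (SE 0.64).

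The balance of Igha to Ighm within a library does not depend on the depth or on the size factor. Reads of Igha per read of Ighm were 10.9, 37.6 and 2.44 in fructose tumours and 25.0 and 61.2 in cornstarch tumours. They were 1.31, 1.43 and 0.359 in 9-month fructose livers and 1.81, 1.58 and 6.90 in 9-month cornstarch livers. They were 4.86 and 11.8 in 5-month fructose livers and 5.50, 6.07 and 1.22 in 5-month cornstarch livers. Within each diet, every tumour had a higher ratio than every liver of 9 months. The mean difference within diet was 3.68 on the log2 scale, 12.8-fold, with a two-sided exact permutation p of 0.005, the smallest that the 200 arrangements within diets allow, and 0.015 after adjustment over 3 such tests. It ranged between 3.20 and 4.19 with each library left out. This ratio was chosen after the values of both genes were known.

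For fructose against cornstarch within age in liver, the log2 ratio differed by -0.24 (exact permutation p = 0.715, adjusted p = 0.715). For 9 against 5 months within diet it differed by -1.73 (exact permutation p = 0.09, adjusted p = 0.135). As a share of all heavy chain constant reads, Igha made up 81.6%, 83.5% and 67.2% in fructose tumours and 89.5% and 91.0% in cornstarch tumours. In 9-month livers the share was 44.5%, 50.1% and 22.8% under fructose and 58.4%, 45.8% and 73.8% under cornstarch. In 5-month livers it was 58.2% and 60.9% under fructose and 72.2%, 70.2% and 48.7% under cornstarch. Some livers thus lay above fructose tumour 3. The widest 95% Wilson interval among these libraries was that of fructose tumour 3, from 63.3% to 70.8% of 615 reads, and such intervals cover counting error only.

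**Figure D4:**
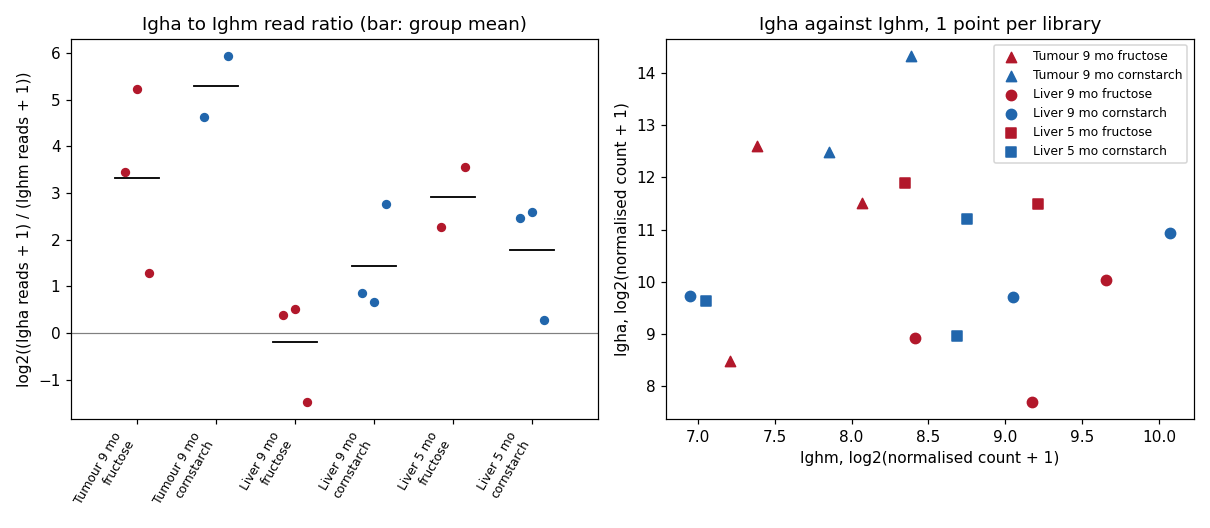
Left, log2 of the Igha to Ighm read ratio (1 read added to each) by group, with 1 point per library and group means as bars; right, Igha against Ighm as log2(normalised count + 1), with triangles for tumours, circles for 9-month livers and squares for 5-month livers. Within each diet the tumours lie above all 9-month livers in the left panel, by 3.68 on average.

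Antibody reads were spread over many variable (V) segments in every library. Heavy chain segments with at least 1 read numbered 30 to 88 per library, and kappa segments 34 to 85. The most used segment took 4.99% to 10.8% of the heavy chain V reads of a library and 6.70% to 17.9% of the kappa V reads. The effective number of segments, estimated as the inverse of the chance that a pair of reads drawn without replacement share a segment, was 28.9 to 45.7 for heavy and 17.8 to 32.4 for kappa chains, and in shallow libraries it can exceed the number seen. Igkv1-110 and Igkv10-96 were among the 3 V segments with the most reads in every group. In cornstarch tumours, Igkv1-110 took 7.08% of all V reads. Igkv1-117 was among the top 3 in all groups but the 9-month fructose livers, where Igkv3-2 came first with 4.06%. V segments are near copies of each other, so single segments are uncertain. Lambda constant genes made up 2.60% to 8.58% of the light chain constant signal.

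Among genes of antibody supply and transport, Tnfsf13 and Pigr passed the test between tumour and liver under both diets. Of 7 tested survival and homing genes Tnfsf13 was the 1 that rose under either diet, and of 8 tested antibody receptor and transport genes Pigr was the 1 called, lower under both. Over all genes, 5.75% were called higher and 4.46% lower under fructose, and 4.82% higher and 0.889% lower under cornstarch. Tnfsf13, the APRIL gene, stood at 804, 667 and 422 normalised counts in fructose tumours, against 68.7, 40.3 and 83.4 in fructose livers, and rose 9.79-fold (SE 0.44 on the log2 scale, adjusted p = 0.00259). Under cornstarch it stood at 493 and 666 in tumours, against 47.3, 29.2 and 107 in livers, and rose 10.6-fold (adjusted p = 0.00553), a call lost without replicate 2 of the cornstarch tumours (log2 fold change 3.19). The Tnfsf13 gene overlaps its neighbour Tnfsf12 in the genome, so the assignment of its reads is uncertain. Pigr, which encodes the receptor that carries polymeric IgA and IgM across hepatocytes and bile duct cells, stood at 3973, 3798 and 2204 in fructose tumours, against 25013, 21759 and 25495 in fructose livers. It fell 7.47-fold (adjusted p = 0.00203). Under cornstarch Pigr stood at 10910 and 4097 in tumours, against 24714, 25034 and 16801 in livers, and fell 3.26-fold (adjusted p = 0.0379). This Pigr call was lost without any single 9-month fructose liver (log2 fold change -1.71), without cornstarch liver replicate 1 (-1.62) or 2 (-1.61), without cornstarch tumour replicate 2 (-1.0) and in edgeR (-1.56).

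Of the other lists under fructose, the B cell genes Blnk (5.51-fold) and Ly6d (13.0-fold) rose in tumours, 2 of 19 tested, and the plasma cell list had 3 of 11 higher. These were Fkbp11 (6.92-fold), Xbp1 (1.77-fold) and Txndc5 (1.73-fold), genes of secretory cells, hepatocytes included. The calls of Xbp1 and Txndc5 were lost when any single fructose liver was left out. Cxcl12, a chemokine that retains plasma cells, fell 3.40-fold, a call lost without replicate 2 (log2 fold change -1.71) or 3 (-1.68) of the fructose livers. Of 9 macrophage genes the Kupffer cell genes Clec4f and Timd4 fell. Under cornstarch, 2 of 19 B cell genes rose (Ly6d 23.6-fold and Blnk 4.15-fold) and 2 of 11 plasma cell genes (Fkbp11 7.20-fold and Slamf7 2.89-fold). Without replicate 2 of the cornstarch tumours, Blnk (log2 fold change 1.92), Fkbp11 (2.53) and Slamf7 (1.27) were no longer called. No immunoglobulin constant gene was called in tumours over livers under either diet.

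Ly6d stood at 2026 to 6894 normalised counts in the 5 tumours, above all 11 livers. Most markers of other cells that could carry some members were low. Of the 6 plasmacytoid dendritic cell markers 4 stayed below 10 in all libraries, and the summed list was 13.0 to 28.3 in fructose tumours, 31.0 and 44.6 in cornstarch tumours and 10.4 to 37.2 in livers. Of the 5 pancreas acinar markers 4 stayed below 10, with sums of 2.24 to 16.4 over the libraries. Among 6 B cell precursor markers Vpreb2 and Igll1 were at 0 in all libraries and 5 stayed below 10. The other marker, Dntt, the terminal transferase gene, had 32.2, 380.2 and 40.9 in fructose tumours, 32.0 and 98.4 in cornstarch tumours and 7.28 to 98.4 in livers. The summed list was 38.3 to 383 in fructose tumours, 34.5 and 104.8 in cornstarch tumours and 10.4 to 98.4 in livers. The part of these cells in the results was not tested.

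**Figure D5:**
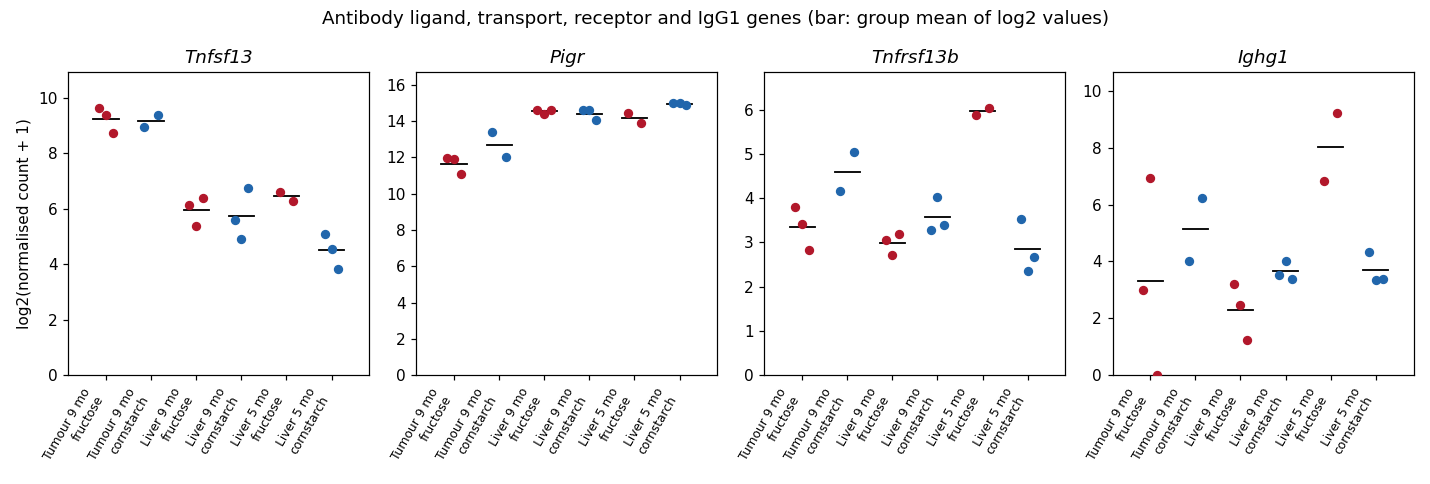
Normalised counts on a log2(value + 1) axis of Tnfsf13, Pigr, Tnfrsf13b and Ighg1 in each library, fructose red and cornstarch blue, with group means of the log2 values as bars. The 5 tumours hold 422 to 804 counts of Tnfsf13, above all 11 livers, and 2204 to 10910 counts of Pigr, below all 11 livers, while Tnfrsf13b and Ighg1 are high in the 5-month fructose livers.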

How the data were processed

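The authors deposited 1 table of normalised counts (a signal unit), 47069 Ensembl genes by 16 libraries, made with FastQC, Trim Galore, STAR, RSEM and DESeq2 on GRCm38 with no version stated, per the submitters' processing notes. The values of a library are multiples of 1 step, so whole reads were recovered for 100% of the values within 0.01. Libraries were prepared from total RNA with an mRNA kit, per the labels' protocols. Whether the counting used strand is not given in the sources used here. Names and coordinates are from GENCODE M21, which held 46488 IDs.

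Values plus 1 were moved to log2 and compared by limma 3.58.1 (R 4.3.3), using group means and a variance trend, over the 11 liver libraries or the 11 libraries of 9 months. Genes at 10 or more in at least 2 libraries were tested, adjusted by Benjamini and Hochberg at 0.05. Alternatives were edgeR 4.0.16 (quasi-likelihood) and DESeq2 1.42.0 on the recovered reads, other pseudocounts, filters and scalings, array weights, other sets of libraries and each library left out. On the recovered reads edgeR called 2057 genes for diet at 5 months, against 2119 in limma. The pipeline was tested on simulated data. All 9 members are named, with a part of the genes of the lists, mostly those of smallest p. Some called genes of the lists are not named. The members and lists were chosen with earlier results of these data known.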

Additional observations from a re-analysis of the deposited data

Results flagged for a closer look

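Among genes of the B lineage lists, Tnfrsf13b and Ighg1 passed the test of the difference in diet effect between livers of 9 and 5 months. This was in the limma fit of the 11 liver libraries. Tnfrsf13b, the TACI gene, had a diet effect at 9 months minus that at 5 months of -3.702 on the log2 scale (limma adjusted p = 0.0250). It stood at 7.28, 5.60 and 8.16 normalised counts in fructose livers and 8.68, 15.4 and 9.53 in cornstarch livers at 9 months, and at 58.3 and 65.1 in fructose livers and 10.5, 4.11 and 5.33 in cornstarch livers at 5 months. Ighg1, the constant region of IgG1, had a difference of -5.697 (adjusted p = 0.0339). It stood at 8.32, 4.48 and 1.36 in fructose livers and 10.6, 15.4 and 9.53 in cornstarch livers at 9 months, and at 112 and 602 in fructose livers and 19.1, 9.24 and 9.32 in cornstarch livers at 5 months. Each call was lost in 7 of the 11 fits that left out a library (Ighg1 at -4.49 without replicate 2 of the 5-month fructose livers), and Tnfrsf13b was also not called without the XX libraries (-4.118). Ighg1 was not called with all 16 libraries in the fit (adjusted p = 0.309) or a pseudocount of 0.5 (0.0516), and with the filter at 50 neither was called (Tnfrsf13b 0.0724, Ighg1 0.0596). Both are described in the report as genes of the related lists, not as members.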

How the results depend on the processing

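The number of members called was 1 for diet at 5 months and 0 in the other 8 comparisons. At 5 months it became 0 with the filter at 50, where Cd79b was not tested, 0 with quantile normalisation and 4 with array weights. For tumour against liver under fructose it was 1 with DESeq2 and 1 with the compared groups alone, under cornstarch 3 and 3, and for age under fructose 2 with DESeq2 and 3 with array weights. With each library left out it ranged from 0 to 3 in these 4 comparisons and was 0 in the other 5. The sign turned for Ighm in diet at 9 months (edgeR -0.0075, DESeq2 -0.0042, array weights -0.076), for Igha in age under cornstarch (edgeR -0.015, DESeq2 -0.015), for Ms4a1 in age under fructose without the XX libraries (-0.41) and for Ms4a1 in the tumour and liver diet difference with quantile normalisation (0.12), from folds near 0 that were not called; the cause was not tested. With a library left out, the sign of these uncalled log2 fold changes turned within the ranges given. Diet at 9 months: Ighm -0.48 to 1.08 and Mzb1 -0.72 to 0.0089. Diet in tumours: Cd79b -0.999 to 0.075. Tumour over liver: Cd79a -0.90 to 0.020 under fructose, and Cd79a -0.17 to 1.47 and Ighm -1.44 to 0.12 under cornstarch. Age under fructose: Ms4a1 -0.41 to 0.99 and Ighm -0.13 to 0.74. Age under cornstarch: Ighm -0.16 to 1.40, Igha -0.30 to 0.82, Igkc -0.11 to 1.15 and Mzb1 -0.078 to 0.77. Difference of diet effects between ages: Ighm -1.10 to 0.46. Difference between tumour and liver: Ms4a1 -0.76 to 0.27. The Igha to Ighm log2 ratio ranged from -0.62 to 0.094 for diet within age, from 3.20 to 4.19 for tumour over liver and from -2.10 to -1.41 for age.
No paired analysis was possible because the labels carry no replicate numbers, and those used here were given in accession order. Depth limits Ms4a1, Mzb1 and Tnfrsf17 most, and Cd79b, the 1 member called, held only 35 to 156 reads per group.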
